A study of Mus musculus with 6 samples.

Results

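The genes described here are the chromatin modifiers and remodellers listed for mDCT15 cells, a mouse cell line derived from the distal convoluted tubule of the kidney. They were taken by a rule on gene names, which was chosen with earlier results of these data known. It took symbols that begin with Kdm, Kmt, Hdac, Sirt, Kat, Arid, Chd, Cbx, Ezh, Brd, Setd, Ehmt or Suv39h and a number. It also took symbols that begin with Smarc, and Eed, Suz12, Ep300 and Crebbp. The rule took 124 of the 20624 genes in the table, and no symbol was repeated among them. Of the 124 genes, 118 are annotated as protein coding, and 117 encode proteins of the named families. The other 7 rows are Brd3os and Kdm6bos, which are named as opposite-strand transcripts of their neighbours, and 5 processed pseudogenes.

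RNA depleted of ribosomal RNA was sequenced from 6 mDCT15 cultures grown alike in medium with fetal bovine serum, of which 3 were wild type and 3 were Pkd1-/-. The Pkd1-/- cells were made by CRISPR-Cas9 editing, and their genotype field reads knockdown while their titles and the methods describe a knockout. Whether the edited line comes from a single clone is not given in the sources used here. The value used for each gene was the authors' mean normalized count, which pools all 6 samples of both genotypes. It has no standard deviation, so no order of genes given here was tested, and a difference between the genotypes is contained in the mean and cannot be read from it. The means added up to 16746088 over all genes, of which the 124 genes held 1.37%. Pkd1 itself had a mean of 3175, which as a pooled value does not check the genotype labels. Of 8 listed markers of the distal convoluted tubule, 5 were among the genes analysed: Wnk1 at 8468, Stk39 at 621, Wnk4 at 413, Trpm6 at 29.6 and Klhl3 at 5.7. The sodium chloride cotransporter gene Slc12a3, which defines this segment, and Pvalb and Calb1 were not among them. Of 5 listed markers of other segments only Lrp2, the proximal tubule receptor megalin, was present, with a mean of 8826. How specific each listed gene is to its segment was not tested.

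DNA in the nucleus is wound around histones, and the genes described here encode the proteins that set how open that packaging is. Writers add methyl or acetyl groups to histone lysines, erasers remove them, and readers such as bromodomain and chromobox proteins bind the modified lysines. Remodellers of the SWI/SNF, ISWI and CHD families use ATP to slide or eject nucleosomes. Many of these proteins work as interchangeable paralogs in large complexes, and which paralog a cell makes differs between tissues and stages of development.

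Since longer transcripts yield more reads, levels were compared between genes as the mean normalized count per kilobase of annotated exon, written below as counts per kb. On this scale the 117 family genes had a median of 155 counts per kb, against a median of 97.3 for the 11827 protein coding genes with a mean of at least 10. At that minimum 116 of the 117 family genes were measured, with Kdm4d as the exception, and 70 had a mean of at least 1000. For comparison, 85.3% of all protein coding genes in the table reached a mean of 10, 72.9% a mean of 100 and 31% a mean of 1000. Genes absent from the table are not counted in these shares. The means are not scaled for length, and merged exons had a median of 9123 bases in family genes. Over all protein coding genes in the table this median was 6167. The family genes lay at a median percentile of 64.7 among the measured protein coding genes, 44 of them above percentile 75 and 14 below percentile 25. This rank depended on the length used and was 53.6 per coding length and 75.2 without scaling for length. Ranks within families also depended on it. Of 10 families, 1 kept its highest gene under each of 6 other lengths, the ARID genes with Arid1a, and 4 kept their lowest. Kdm4d was the lowest of the 117 family genes under every length. Ranks given below are per kb of merged exons.

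**Figure D1:**
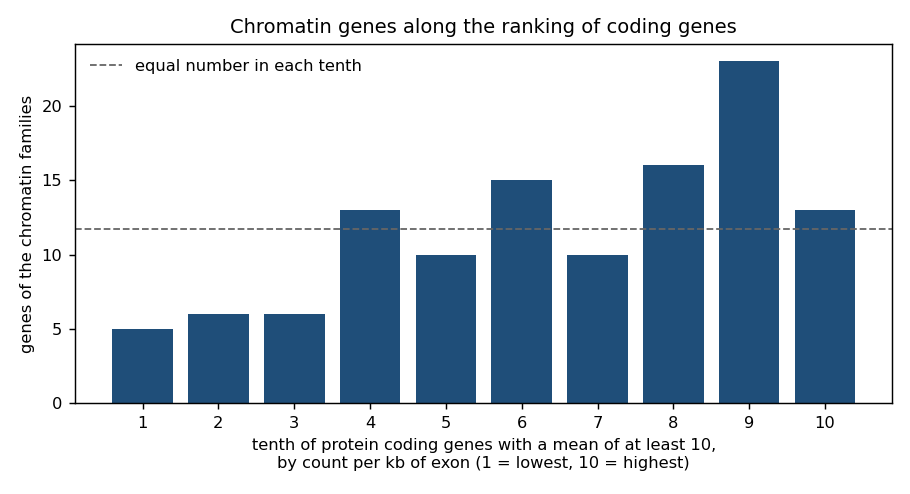
Number of the 117 chromatin family genes (y axis) in each decile of the 11827 protein coding genes with a mean of at least 10, ordered by counts per kb of exon (x axis), with a dashed line at equal numbers. The decile next to the highest held the most genes, 23, and the lowest decile the fewest, 5, with Kdm4d counted in it.

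**Figure D2:**
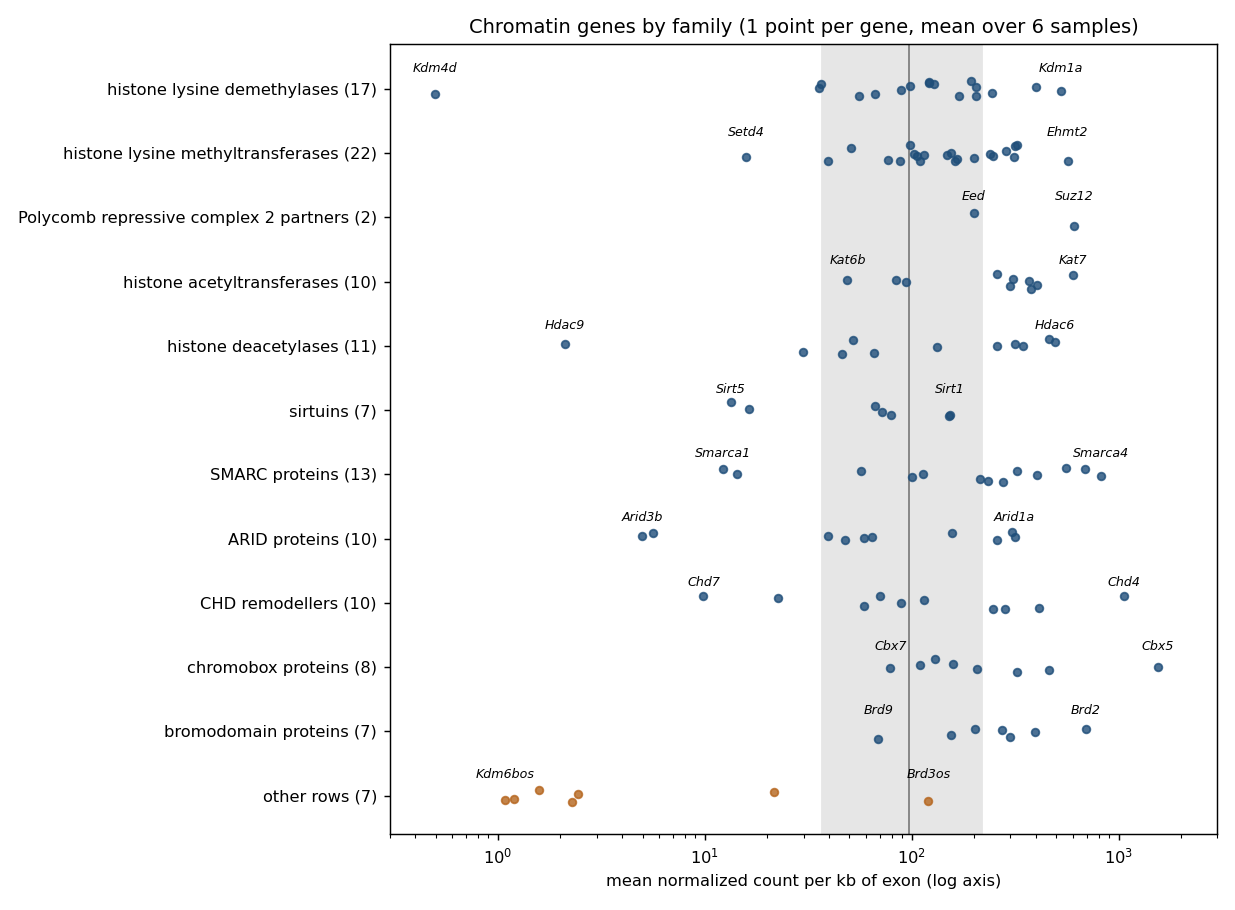
Mean normalized count per kb of exon on a log axis for each of the 124 genes, by family, with the number of genes in brackets and the lowest and highest gene of each family named. The grey band runs from 37 to 219 counts per kb, from percentile 25 to percentile 75 of measured protein coding genes, and the line marks their median of 97.3; Cbx5 was highest at 1551 and Kdm4d lowest at 0.498.

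Of the ATPases that drive nucleosome remodelling, the SWI/SNF and ISWI pairs were each represented mainly by a single paralog. Smarca4, which encodes the SWI/SNF ATPase BRG1 and lies on chromosome 9 of GRCm39 from 21527398 to 21615526, had a mean of 5402 and 821 counts per kb. Its paralog Smarca2, which encodes BRM and lies on chromosome 19 from 26582450 to 26755722, had a mean of 255 and 14.3 counts per kb, so that Smarca4 made up 98.3% of the pair. The log2 ratio of Smarca4 to Smarca2 was 5.84, and with other lengths it was between 2.65 and 6.02. The ISWI ATPases showed the same imbalance. Smarca5, which encodes SNF2H, had 401 counts per kb and made up 97% of its pair with Smarca1, which encodes SNF2L and had 12.3 counts per kb, and this log2 ratio was between 5.01 and 7.81 over the other lengths. Among the ATPases of the NuRD complex, which joins remodelling with deacetylation, Chd4 had a mean of 9818 and 1065 counts per kb. Chd3 had 412 counts per kb, and Chd5, known chiefly from neurons, had 22.5. Chd4 and Chd3 thus accounted for 71% and 27.5% of this set, and their log2 ratio of 1.37 was between 0.74 and 1.61 over the other lengths.

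The other CHD genes were spread more widely. Chd1, which is linked to transcription elongation, had 248 counts per kb and Chd2 had 114, an order that turned with the median transcript length. Chd8, a gene linked to autism, had 282 counts per kb and led its subfamily, ahead of Chd6 at 89.1 and Chd9 at 59.1. Chd7, which is mutated in CHARGE syndrome, had a mean of 147 and 9.85 counts per kb, 28.6-fold below Chd8. With the median transcript length Chd5 was the lowest CHD gene, and otherwise Chd7 was. Chd1l, which acts in DNA repair, had 70.3 counts per kb. Of the exon bases of Chd2, 14.2% are shared with another gene on the same strand, where reads cannot be told apart.

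Per kb of merged exons, the non-catalytic SWI/SNF subunits were more evenly divided between paralogs than the ATPases. Arid1a and Arid1b, alternative subunits of the BAF form of the complex, had 314 and 305 counts per kb, a 1.03-fold difference. Arid2, a subunit of the PBAF form, had 258 counts per kb. The scaffold genes Smarcc1 and Smarcc2 had 684 and 556 counts per kb. Smarcd1 and Smarcd2 had 324 and 277, the reverse order with the longest transcript, and Smarcd3, known for its part in heart and muscle, had 100.4. The core subunit genes Smarcb1 and Smarce1, which have no paralog in the rule, had 233 and 214 counts per kb. Of the bromodomain subunits, Brd7 of PBAF had 297 counts per kb and Brd9 of the non-canonical form had 68.8. Their log2 ratio of 2.11 fell to 0.66 with the canonical transcript and reached 3.16 with the median transcript. With the median transcript the log2 ratio of Smarca4 to Smarca2 was 2.65, lower than that of Brd7 to Brd9. Smarcad1 and Smarcal1, helicase-like proteins of DNA repair and replication rather than SWI/SNF subunits, had 113 and 56.7 counts per kb.

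The remaining ARID genes encode DNA-binding proteins outside SWI/SNF and were lower. Arid5b, a partner of the demethylase PHF2, had 157 counts per kb, while Arid4a and Arid4b, which bind the retinoblastoma protein, had 64.3 and 58.9. Arid3a had 47.7 and Arid5a 39.6 counts per kb. Arid3b and Arid3c were close to the floor of the family, with means of 57.9 and 10.7 and levels of 4.99 and 5.65 counts per kb. Of the 10 ARID genes, 4 were above the median of measured protein coding genes, all of them named above as Arid1a, Arid1b, Arid2 and Arid5b.

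**Figure D3:**
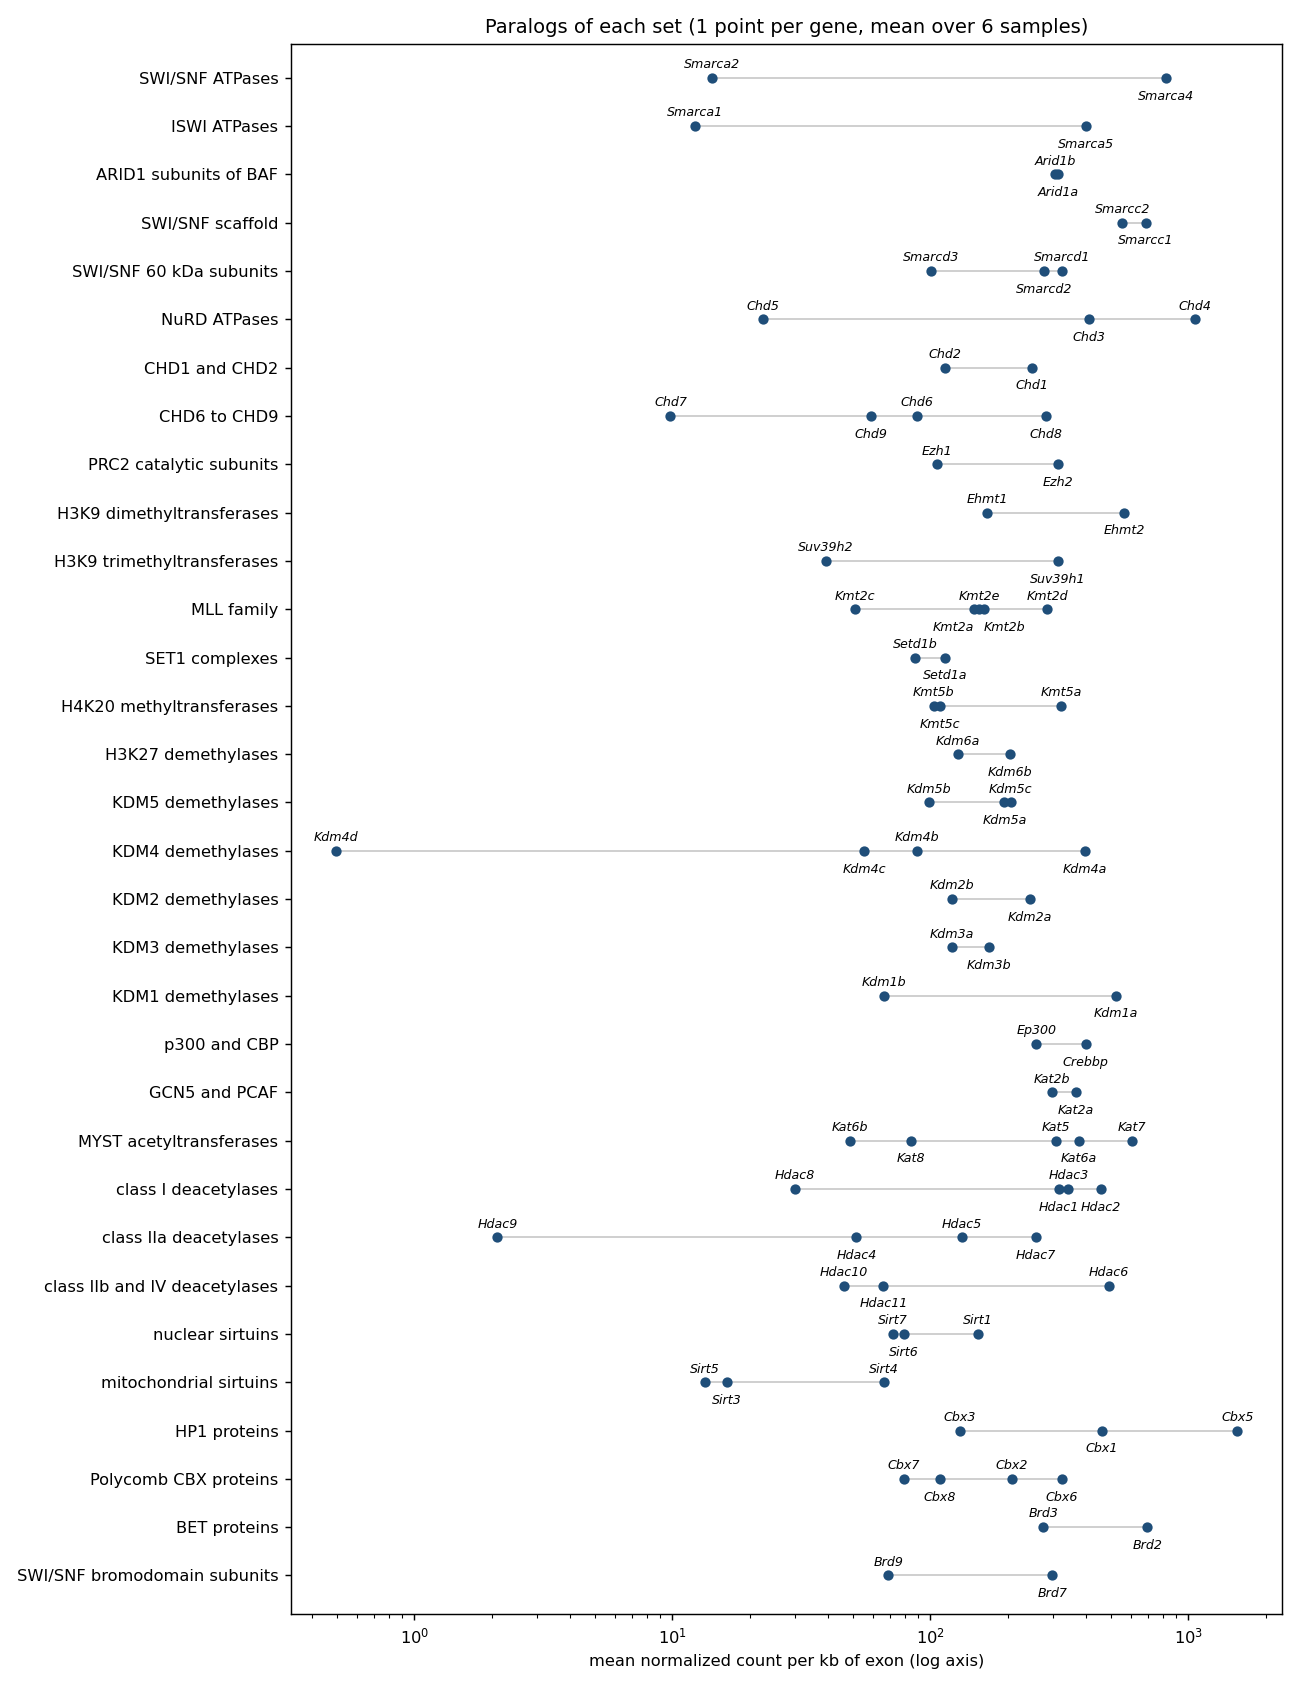
Mean normalized count per kb of exon on a log axis for genes of 32 sets of paralogs, with 1 point per gene and a line from the lowest to the highest gene shown of a set. The line is long for the ATPase pairs Smarca4 and Smarca2 (821 and 14.3) and Smarca5 and Smarca1 (401 and 12.3) and short for Arid1a and Arid1b (314 and 305).

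The Polycomb system keeps developmental genes silent through methylation of H3K27. All members of the core of Polycomb repressive complex 2 were measured. Suz12 had a mean of 4589 and 608 counts per kb, and Eed had 199 counts per kb. Of the alternative catalytic subunits, Ezh2, typical of dividing cells, had 314 counts per kb and made up 74.8% of the pair, while Ezh1 had 106. Outside the naming rule, the histone-binding subunit genes Rbbp4 and Rbbp7 had 730.0 and 544 counts per kb, and all 8 listed partners of the complex reached a mean of 100, with Jarid2 lowest at 42.7 counts per kb. The opposing H3K27 demethylase genes Kdm6b and Kdm6a had 204 and 128 counts per kb.

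The chromobox genes fall into readers of H3K27 methylation, which belong to Polycomb repressive complex 1, and HP1 proteins, which bind methylated H3K9 in heterochromatin. Among the Polycomb genes, Cbx6 had 323 counts per kb, and Cbx2 had 207, Cbx8 109 and Cbx7 78.9. Cbx7 was above Cbx8 per coding length, with the canonical transcript and without scaling. The 13 listed partners of Polycomb repressive complex 1 all reached a mean of 100, and ranged from 45.7 counts per kb for Yaf2 to 274 for Rnf2, the catalytic ubiquitin ligase.

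The HP1 genes held the highest value of all 124 genes per kb of merged exons. Cbx5 encodes HP1 alpha and is transcribed from the minus strand of chromosome 15 between 103099505 and 103148419. Its mean of 16032 gave 1551 counts per kb, at percentile 98.4 of measured protein coding genes. Cbx1, which encodes HP1 beta, had a mean of 2934 and 463 counts per kb. Cbx3, which encodes HP1 gamma, had a mean of 827 and 130.1 counts per kb, or 6.07% of the set. The lead of Cbx5 over Cbx1 depended on gene models. With the length of the canonical transcript, which is 9445 bases for Cbx5 and 1303 for Cbx1, their levels were 1697 and 2252 counts per kb. With the median transcript length Kmt2d was the highest of the 117 family genes.

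The sequence of Cbx3 has near-identical copies elsewhere in the genome. Of the 42-base sequences in its exons, the read length of this study, 22.7% occur at more than 1 place in GRCm39. By default the counting program used leaves out reads that map to several places. The reads were paired, and a mate in unique sequence can place a repeated read. The search took each 42-base sequence alone, so the repeated share can overstate what was left out. The copies Cbx3-ps6 (chr14:74192440-74192991, minus strand) and Cbx3-ps7 (chr1:58685847-58686398, plus strand) align to Cbx3 over all of their 552 bases with 1 and 2 mismatches. Their means were 1.34 and 0.874, and 91.8% and 93.5% of their own 42-base sequences are repeated. Of the 6150 exon sequences of 42 bases in Cbx3, 4753 are unique, and each copy holds only 511. These copies therefore do not show where all of the repeated sequence of Cbx3 is matched, which was not tested. To show what a short read has to tell apart, the first 120 coding bases of Cbx3 (chr6:51447082-51460691, plus strand) are printed with the same stretch of Cbx3-ps6. The stretches are identical, with 0 mismatches, so no base is in capitals.
Cbx3: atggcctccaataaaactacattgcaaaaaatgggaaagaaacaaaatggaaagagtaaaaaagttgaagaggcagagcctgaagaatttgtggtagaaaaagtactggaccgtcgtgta
Cbx3-ps6: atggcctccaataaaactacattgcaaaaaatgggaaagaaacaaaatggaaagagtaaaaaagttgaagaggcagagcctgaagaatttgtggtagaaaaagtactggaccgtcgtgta

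The copy Kat2b-ps has diverged more from Kat2b. Of the 4210 exon sequences of 42 bases in Kat2b, 3233 are unique in the genome. In Kat2b-ps 2095 of 2449 are unique, so it holds fewer repeated sequences than Kat2b. The pair printed here therefore does not show where most of the repeated sequence of Kat2b is matched, which was not tested. Kat2b (chr17:53873889-53979749, plus strand) encodes the acetyltransferase PCAF. Kat2b-ps (chr5:93538461-93540950, minus strand) matches it at 95.1% of 2479 aligned bases. In the first 120 coding bases, 7 positions differ and are printed in capitals, and the longest run without a difference is 38 bases, shorter than a read.
Kat2b: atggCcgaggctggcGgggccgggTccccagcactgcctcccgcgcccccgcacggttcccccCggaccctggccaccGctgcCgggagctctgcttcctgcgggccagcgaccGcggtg
Kat2b-ps: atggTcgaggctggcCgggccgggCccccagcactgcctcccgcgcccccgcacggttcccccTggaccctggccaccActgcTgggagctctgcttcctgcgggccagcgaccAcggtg

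Over the 117 family genes, the median share of repeated 42-base sequences was 0.94%, and 9 genes exceeded 10%. The highest were Hdac1 at 29.9%, Smarca5 at 27.9% and Kat2b at 23.2%. Divided only by the positions with a unique sequence, the level of Hdac1 went from 349 to 498 counts per kb of positions. Smarca5 went from 458 to 636 and Cbx3 from 134 to 174. These levels treat reads as single, without their mates, and can therefore correct too much. The 5 pseudogenes had means from 0.874 to 23.4, the highest being Smarce1-ps1, which is 98.3% identical to Smarce1 over its aligned bases. Smarca5-ps and Kat2b-ps had means of 7.16 and 2.98, against 3125 and 1503 for their parents. From 14.5% (Kat2b-ps) to 93.5% (Cbx3-ps7) of the pseudogenes' own 42-base sequences are repeated, so reads left out can lower these means. Over unique positions the pseudogenes ranged from 1.42 counts per kb for Kat2b-ps to 59.9 for Smarce1-ps1.

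**Figure D4:**
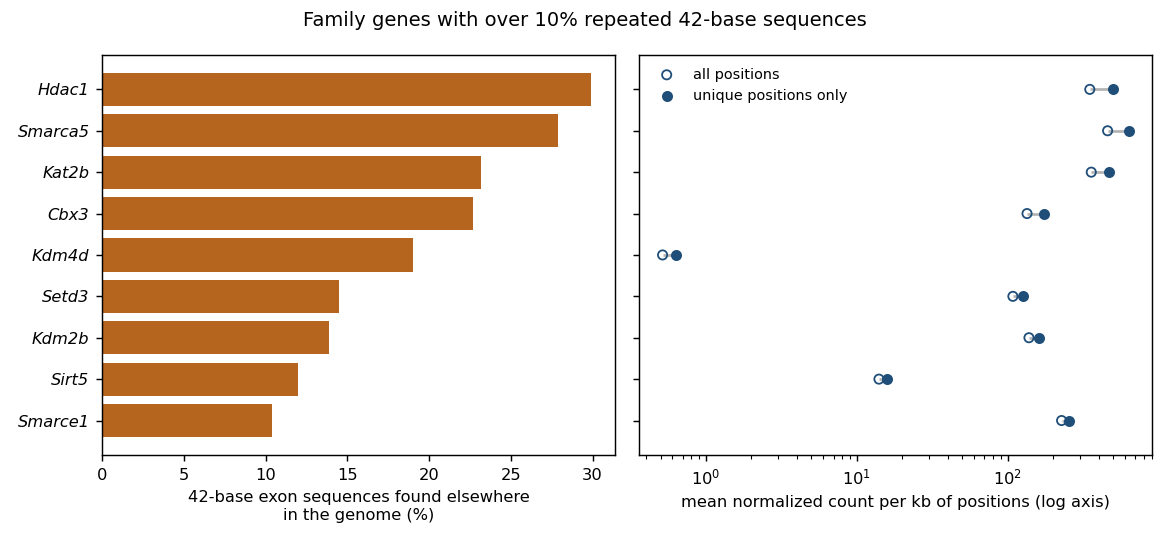
Left, percent of 42-base exon sequences that occur at more than 1 place in the genome for the 9 family genes above 10%. Right, mean normalized count per kb on a log axis, over all positions (open) and over unique positions (filled); the largest repeated share was 29.9% for Hdac1, whose level went from 349 to 498.

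Among lysine methyltransferases Ehmt2, which encodes the H3K9 enzyme G9a, had a mean of 3258 and 566 counts per kb. It was the highest of its family on this scale, whereas Kmt5a led per coding length and with the canonical transcript, and Kmt2d led without scaling and with the median transcript. Its partner Ehmt1 had 166. Of the H3K9 enzymes of heterochromatin, Suv39h1 had 313 counts per kb and Suv39h2 39.4, although 52.4% of the exon bases of Suv39h2 face exons of a gene on the other strand. The very large MLL genes, whose products apart from that of Kmt2e methylate H3K4 at promoters and enhancers, included Kmt2d at 284 counts per kb. Kmt2b, Kmt2e and Kmt2a lay close together at 161, 155 and 148, and Kmt2c was lower at 50.9. Kmt2d was the highest of this set on this scale, but with the canonical transcript Kmt2e had 331 and Kmt2d 285, and Kmt2e was also ahead with the longest transcript and per coding length. Setd1a and Setd1b, the catalytic subunits of the SET1 complexes, had 114 and 87.3 counts per kb, an order that turned per coding length and without scaling. For Setd1a, 51.5% of the exon bases lie in exons of another gene on the same strand. The 9 listed COMPASS partners, which serve MLL and SET1 enzymes, ranged from 129 counts per kb for Paxip1 to 535 for Men1.

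For H4K20 methylation, Kmt5a, which places the first methyl group, had 322 counts per kb, and Kmt5c and Kmt5b had 109 and 103. Kmt5b was above Kmt5c under the other lengths except over unique positions, with means of 1597 and 567 without scaling. Setd2, which adds the third methyl group to H3K36, had 247 counts per kb. Setd5 had 199 and Setd7, which also methylates other proteins, had 239. Setd3, which methylates a histidine of actin, had 98.4 counts per kb. Setd6 had 76.7, and Setd4 had a mean of 145 and 15.8 counts per kb, the lowest of the 22 methyltransferase genes except per coding length and with the canonical transcript. All 22 reached a mean of 100, and 17 were above the median of measured protein coding genes.

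Among the demethylases Kdm1a, which encodes the flavin-dependent enzyme LSD1, had a mean of 2936 and 524 counts per kb, 7.9-fold above Kdm1b. The log2 ratio of Kdm1a to Kdm1b was 2.98, and over the other lengths it was between 2.22 and 3.64. Kdm1a was the highest demethylase gene on this scale, while Kdm2a led per coding length, with the median transcript and without scaling. The other demethylases use iron and 2-oxoglutarate. Among KDM4 genes, Kdm4a, Kdm4b and Kdm4c, whose products act on H3K9 and H3K36, had 397, 89.1 and 55.5 counts per kb. Kdm4d, known chiefly from the testis, had a mean of 2.85 and 0.498 counts per kb and was per kb the lowest of all 124 genes, the 5 pseudogenes included. It was also the only family gene under a mean of 10, and 20.8% of its exon bases are shared with another gene on the same strand.

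Among the KDM5 genes, whose products remove H3K4 methylation, Kdm5c and Kdm5a had 205 and 194 counts per kb and Kdm5b 98.5. The Y-linked Kdm5d was not among the genes analysed. Kdm2a and Kdm2b, which act on H3K36, had 243 and 121 counts per kb, and the H3K9 enzymes Kdm3b and Kdm3a had 169 and 121. Kdm7a and Kdm8 lay lower, at 36.5 and 35.8 counts per kb. The difference between Kdm5c and Kdm5a was 1.06-fold and changed direction with the median transcript length.

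Histone acetyltransferases were among the more highly expressed families, with a median of 302 counts per kb. Kat7, which encodes HBO1, had a mean of 3346 and 604 counts per kb, followed in its subfamily by Kat6a at 377, which was ahead without length scaling, and Kat5, which encodes TIP60, at 307. Kat8, which acetylates H4K16, had 84.2 and Kat6b 48.9. The coactivator genes Crebbp and Ep300 had 401 and 258 counts per kb, a 1.55-fold difference. Kat2a and Kat2b had 368 and 297 counts per kb, but over unique positions Kat2b was the higher of these. Kat14, a subunit of the ATAC complex, had 94 counts per kb.

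Of the class I histone deacetylases, Hdac2 had 458 counts per kb, Hdac3 343 and Hdac1 315, while the X-linked Hdac8 had 29.8. Over unique positions, however, Hdac1 had 498, above Hdac3 at 391 and close to Hdac2 at 501. Hdac1 was also above Hdac3 with the canonical transcript, at 721 and 536. In class IIa, whose members shuttle between nucleus and cytoplasm, Hdac7 had 257 counts per kb, Hdac5 133 and Hdac4 51.8. Hdac9 had a mean of 33 and 2.1 counts per kb, 122-fold below Hdac7. Hdac6, a mainly cytoplasmic enzyme that deacetylates tubulin, had a mean of 3651 and 491 counts per kb. It was the highest of the 11 genes on this scale, but with the canonical transcript Hdac2 had 1256 and Hdac6 762. Hdac11 and Hdac10 had 65.9 and 46.2. Complexes that carry class I enzymes were represented by 9 of 9 listed SIN3 and CoREST genes, from 33.6 counts per kb for Rcor3 to 324 for Ncor1, and by 7 of 7 NuRD genes, from 49.6 for Mta3 to 741 for Mta2.

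The sirtuins, which need NAD and link deacylation to metabolism, were the family with no gene at a mean of 1000. This mean is not scaled for length. The canonical transcripts of sirtuins have a median of 1828 bases, against 5237 for all 117 family genes. Sirt1, a nuclear deacetylase, and Sirt2, a mainly cytosolic one, had 153 and 151 counts per kb. Per coding length and with the longest, median or canonical transcript Sirt2 was above Sirt1, at 448 against 208 with the canonical transcript. The nuclear genes Sirt6 and Sirt7 had 79.3 and 71.9, but Sirt6 was above Sirt1 per coding length and with the median or canonical transcript. Of the mitochondrial genes, Sirt4 had 66.1 counts per kb, Sirt3 16.3 and Sirt5 13.4. The merged exons of Sirt3 span 8787 bases, of which the coding part takes 927, and per coding length Sirt3 was slightly above Sirt4.

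The bromodomain genes of the BET family, whose products bind acetylated histones and recruit elongation factors, included Brd2, with a mean of 5857 and 695 counts per kb, and Brd3 had 274. Brd1, a subunit of acetyltransferase complexes, had 202 counts per kb and Brd8, a subunit of the TIP60 complex, 155. Brd3os had a mean of 228 and 120.2 counts per kb, while Kdm6bos had a mean of 0.974 beside 1416 for Kdm6b.

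The 6 X-linked family genes spanned much of the range. Hdac6 had 491 counts per kb, Suv39h1 313, Kdm5c 205, Kdm6a 128, Hdac8 29.8 and Smarca1 12.3. Chromosome 11 held the most family genes, 14 of 117 (12%), where 8.5% of measured protein coding genes lie. Chromosome 15 held 10 (8.55%), where 3.97% of measured protein coding genes lie.

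The sequence just before the start sites was rich in CpG. In the 250 bases before the start of the canonical transcript, the letters CG occurred a median of 16 times over the 117 family genes, against 13 over measured protein coding genes and 5 over the 2035 protein coding genes with a mean under 10. At least 10 CG were found for 96 (82.1%) of the family genes and for 66.5% of measured protein coding genes. Among the family genes the number of CG was only weakly related to counts per kb, with a Spearman correlation across genes of 0.162, and 0.21 over measured protein coding genes. Kdm7a held 55 CG and had 36.5 counts per kb, Chd7 held 36 and had 9.85, and Chd2 held 0 and had 114, while Hdac8 and Hdac9 held 2 each. Genes are not independent replicates, and the correlation is given as a description.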

How the data were processed

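Per the methods and the submitters' processing notes, Trim Galore 0.4.5 was used for trimming, STAR 2.7.5a for alignment to GRCm39 (Ensembl release 105), HTSeq 0.11.0 at its default settings for counting, and DESeq2 1.22.0 (R 3.5.3) for the authors' test. A minimum of 5 counts in each sample is stated for genes, but the table used here does not follow it, since its smallest mean is 0.618. What kept a gene out of the table is not given in the sources used here. The deposited mean normalized count, a signal divided by library size factors and averaged by the authors over all 6 samples, was the only value used. The other 5 numeric columns hold the authors' own comparison (log2 fold change, its standard error, statistic, p-value and adjusted p-value) and were not used. Values of single samples are not analysed here. Depth per sample and replicate spread are therefore unknown, no test was made, and the edgeR comparison designed for counts per sample was not run.

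Gene models came from GENCODE M39 (Ensembl release 116) on GRCm39, in which 20122 (97.6%) identifiers and all 124 members were found. Exons of all transcripts were merged, and the mean was divided by their length. A gene was called measured from a mean of 10. Each 42-base exon sequence was searched alone, although the reads were paired, on both strands of the genome. Pseudogenes were aligned locally to the canonical transcript of their parent. The search and the length scaling were tested on simulated data. Named were the members of the paralog sets, except 2 that are not reported here, the highest and lowest of each family, partner subunits by range, Pkd1, and members with a mean under 1. Other members were named after their values were seen. Members and lists were chosen with earlier results of these data known. Python 3.11.15, numpy 2.4.6, pandas 2.3.3, matplotlib 3.10.9 and Biopython 1.88 were used.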

Additional observations from a re-analysis of the deposited data

How the results depend on the processing

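Of the 124 genes, 118 reached a mean of 10, and this number was between 112 and 122 with a minimum of 100, 5 or 1, with identifiers of a symbol summed, or with protein coding rows only. The median percentile of the family genes, 64.7, became 66.6 with the longest transcript, 70.5 with the median transcript, 62.1 with the canonical transcript, 53.6 with the coding length, 75.2 without length scaling, 78.6 against all genes and 58.8 against protein coding genes with a mean of at least 100. Of 32 paralog sets, 28 to 31 kept their highest gene under each of 6 other lengths. The canonical transcript and the unique positions were chosen after seeing the data.

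The log2 ratio of the first to the second gene of a set changed sign as follows. With the median transcript length it was -1.85 for Chd1 to Chd2, -0.73 for Kdm5c to Kdm5a, -0.34 for Sirt1 to Sirt6 and -0.46 for Cbx5 to Cbx1. With the coding length it was -0.22 for Setd1a to Setd1b, -0.43 for Sirt1 to Sirt6 and -0.06 for Sirt4 to Sirt3. With the canonical transcript it was -0.42 for Sirt1 to Sirt6 and -0.41 for Cbx5 to Cbx1. It was -0.20 for Smarcd1 to Smarcd2 with the longest transcript, -0.43 for Setd1a to Setd1b and -0.09 for Kat7 to Kat6a without scaling, and -0.07 for Kat2a to Kat2b over unique positions. In the other 23 sets the first gene stayed ahead of the second, but in the MLL set the third gene, Kmt2e, passed Kmt2d with the longest transcript, the coding length and the canonical transcript, so that 22 sets kept their highest gene under each of these lengths. Without changing sign, the ratio moved by at least 0.5 in 0 to 15 sets per length, and in 23 sets under at least 1 length. The alternatives differ only in the length that divides the mean.

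No paired analysis was possible because the values are means over all samples. For the same reason leaving out replicates, another normalization and a count test were not run.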

Other observations

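Of the 68 subunits listed outside the naming rule, 66 were in the table and all 66 had a mean of at least 100. Of all protein coding genes in the table, 72.9% did. Actl6b and Dpf3, which with Dpf1 and Ss18l1 belong to the SWI/SNF form of neurons or muscle, were not among the genes analysed, while Dpf1 and Ss18l1 had 35 and 53.3 counts per kb. Their widely expressed counterparts Actl6a, Dpf2 and Ss18 had 511, 248 and 98.3. Pbrm1, the defining subunit of PBAF, was highest in its list at 529.6 counts per kb, and Bicra and Bicral, which mark the non-canonical form together with Brd9, had 43.7 and 80.2. In the list of ISWI and INO80 partners, Baz1b was highest at 429 counts per kb and Srcap lowest at 17.6, while Ep400, the related ATPase of the TIP60 complex, had 315. These values are pooled means, and their order was not tested.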
